A study of Mus musculus with 8 samples.

Results

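The genes described here are 10 genes of the insulin and insulin-like growth factor (IGF) pathway: the ligand Igf1, the receptors Insr and Igf1r, the docking proteins Irs1 and Irs2, the adaptor Grb10, the PI3-kinase regulatory subunit Pik3r1, and the IGF-binding proteins Igfbp3, Igfbp4 and Igfbp5. They were chosen by name, with earlier results of these data known. Every probe annotated to one of these symbols was taken on all 8 arrays. Of the 10 genes, 8 had a probe, with 9 probes between them because Igfbp4 had 2, out of 15967 named genes with a probe on the array. Irs2 and Igfbp3 were not analysed here. Of the 8 genes with a probe, 5 (Igf1, Insr, Igf1r, Igfbp4 and Igfbp5) were above background on both arrays of at least 1 group and were tested among 9963 genes, and 3 (Irs1, Grb10 and Pik3r1) were not above background on any array. The 9963 count each tested probe without a single gene symbol as a gene of its own, here and in every share of all genes.

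The study profiled brown fat, of a depot that the labels do not name, and quadriceps muscle of C57BL/6J mice with 1-colour Illumina bead arrays, 2 arrays for each of 4 groups. The groups were brown fat of mice held at 4 °C for 4 h, brown fat of mice at room temperature, quadriceps of mice held at 4 °C for 4 h, and quadriceps of mice at room temperature. All mice ate laboratory chow. The cold-exposed mice had eaten freely overnight and were then kept without food or bedding during the exposure, and the labels do not say whether the room temperature mice were handled in the same way, so cold and food withdrawal cannot be told apart. No label says that the 2 arrays of a group came from separate mice, so the spread between them may be technical. The p-values rest on this spread, pooled over the 4 groups and moderated by the spread of all genes tested.

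Insulin and IGF-1 bind related receptor tyrosine kinases, which phosphorylate insulin receptor substrate proteins and so recruit PI3-kinase and activate AKT. AKT promotes glucose uptake, lipid and protein synthesis, and keeps FOXO transcription factors out of the nucleus. IGF-binding proteins hold IGF-1 in the circulation and in the tissue and can withhold it from, or deliver it to, its receptor. Much of the circulating IGF-1 is made by liver under growth hormone, while fat, muscle and other tissues also make IGF-1 that acts locally. In brown fat, insulin and IGF signalling are known to support adipocyte differentiation, glucose uptake and lipid synthesis, and in muscle they support glucose uptake and fibre growth.

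All levels below are log2 intensities after background correction and quantile normalization, and can be compared between arrays for 1 probe but not between probes. A difference is cold minus room temperature, or brown fat minus muscle, with its standard error (SE), and a gene is called where limma's p, adjusted by Benjamini-Hochberg over the 9963 genes, was under 0.05. Between 10468 and 11280 of 24607 probes were above background on each array, and replicate arrays correlated at 0.977 to 0.9959 across tested genes. Samples did not all match the markers of their tissue. Brown fat arrays carried Ucp1 and Cidea at similar levels in all 4 samples. Of 8 tested brown adipocyte markers, 1 was called lower in cold brown fat and none higher. However, 3 of the 4 brown fat arrays also carried skeletal muscle transcripts: over 8 tested muscle markers, the summed linear intensity was 495 and 64552 on the cold brown fat arrays, and 51721 and 63576 on the room temperature brown fat arrays. On cold brown fat array 1 the 8 muscle markers lay between 5.13 and 6.55. Conversely, the quadriceps arrays from cold mice carried brown fat transcripts, with Ucp1 at 9.16 and 14.45, against 6.18 and 5.93 in quadriceps at room temperature, and a sum over 7 adipocyte markers of 4852 and 19408 against 1749 and 2424. For this reason the cold results that passed the threshold were also computed from a fit to 6 arrays, leaving out cold brown fat array 1 and cold quadriceps array 2, in which both cold groups have 1 array and are assumed to vary like the groups at room temperature. The cold quadriceps array that is kept there, array 1, is the one with Ucp1 at 9.16 and an adipocyte sum of 4852, so brown fat transcripts are not absent from this fit. Over 8 brown adipocyte markers the sum on that array was 55978, against 51123 and 51427 in quadriceps at room temperature. Most of this sum is Cox7a1 (14.7) and Cox8b (14.79), so it says little of brown fat transcripts. In quadriceps at room temperature Cox7a1 was at 14.51 on both arrays, and Cox8b at 14.75 and 14.76. Cidea was at 7.14 on that cold array, against 5.81 and 5.89 in quadriceps at room temperature. Not every such marker was higher there: Elovl3 was at 5.22, against 5.18 and 5.23 in quadriceps at room temperature.

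In brown fat, 2 of the 5 tested genes changed in the cold and both fell. Igfbp5, a binding protein that associates with extracellular matrix, fell 2.54-fold, and Igf1, the ligand of the IGF-1 receptor, fell 2.25-fold. In bulk tissue fewer cells of a type and less RNA per cell cannot be told apart. The receptors Igf1r and Insr and the binding protein Igfbp4 were not called. Over all 9963 genes, 16.6% were called in this comparison, 835 higher and 821 lower. The median difference of the 5 tested genes was -0.19, against 0.02 over all genes.

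**Figure D1:**
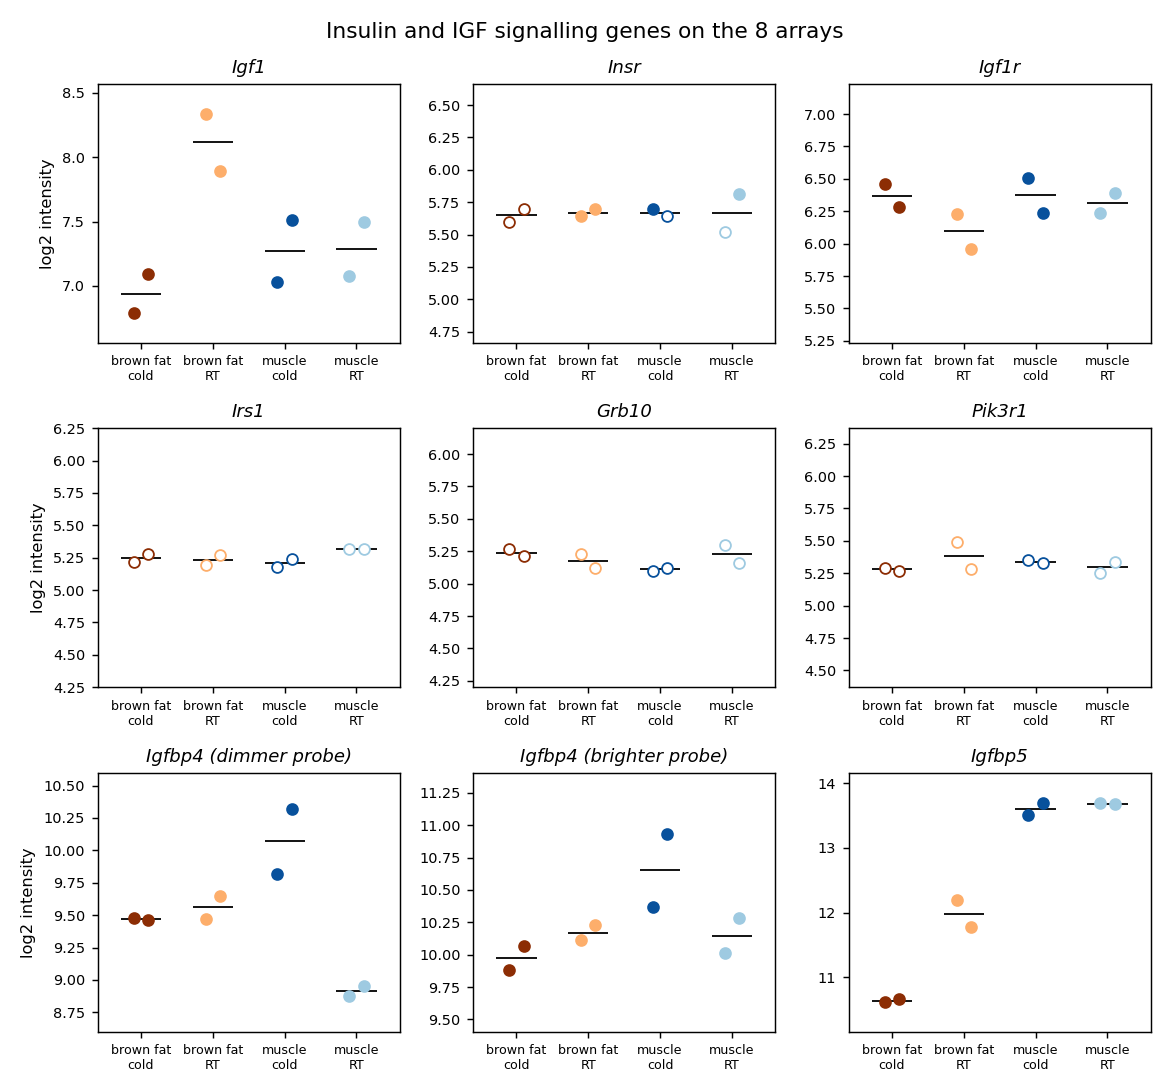
Log2 intensity (vertical axis, with its own range in each panel) of the 9 probes of 8 insulin and IGF pathway genes on the 8 arrays. Points are arrays, horizontal lines are means of 2 arrays, filled points were above background and open points were not. Igf1 and Igfbp5 are lower on both cold brown fat arrays than on both brown fat arrays at room temperature (RT), and all points of Irs1, Grb10 and Pik3r1 are open.

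Igf1 was at 6.79 and 7.09 in cold brown fat, against 8.34 and 7.89 in brown fat at room temperature. Its quadriceps levels were 7.03 and 7.51 in the cold, against 7.08 and 7.50 at room temperature. Both cold brown fat arrays lay below both brown fat arrays at room temperature, while the quadriceps groups overlapped. The cold difference in brown fat was -1.17 (SE 0.24, 95% interval -1.73 to -0.61, n = 2 arrays per group, limma adjusted p = 0.0192). In quadriceps it was -0.02 (SE 0.24, interval -0.58 to 0.54, limma adjusted p = 0.979). The difference between these cold effects was -1.15 (SE 0.34, interval -1.95 to -0.36) and missed the threshold after adjustment (limma adjusted p = 0.101), so the fall of Igf1 is not shown to differ between the tissues. With 6 arrays the brown fat difference was -1.02 (limma adjusted p = 0.0432). The call rested on single arrays: it was lost without room temperature brown fat array 1 (-0.95, adjusted p = 0.0947) and without cold brown fat array 1 (-1.02, adjusted p = 0.0898).

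Igfbp5 was at 10.62 and 10.66 in cold brown fat, against 12.19 and 11.77 in brown fat at room temperature. The quadriceps arrays read 13.51 and 13.70 in the cold, against 13.69 and 13.68 at room temperature. As with Igf1, the brown fat groups were fully separated and the quadriceps groups overlapped. The authors' raw signals, before any normalization, had the same order, at 1310.4 and 1753.7 in cold brown fat against 5126.2 and 3176.6 in brown fat at room temperature. The cold difference in brown fat was -1.34 (SE 0.15, interval -1.70 to -0.98, limma adjusted p = 0.00325), and it was called under all 20 alternative settings, with values between -1.55 and -1.13. In quadriceps the difference was -0.09 (SE 0.15, interval -0.44 to 0.27, limma adjusted p = 0.808). Since Igfbp5 was higher in quadriceps than in brown fat, its values are set beside the muscle markers. The part of muscle RNA in the fall of Igfbp5 was not tested. Cold brown fat arrays 1 and 2, whose muscle marker sums were 495 and 64552, differed by 0.05 in Igfbp5, and with 6 arrays, in which all brown fat sums lay between 51721 and 64552, the difference was -1.32 (limma adjusted p = 0.0109).

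The cold effect on Igfbp5 was lower in brown fat than in quadriceps by 1.26 on the log2 scale (difference of the effects -1.26, SE 0.21, interval -1.76 to -0.75, limma adjusted p = 0.0325). It was the 1 of the 5 tested genes called in this comparison, in which 4.22% of all genes were called. In the fit of every probe, the dimmer probe of Igfbp4, described below, was called as well (-1.24, SE 0.24, adjusted p = 0.0435). The 5 tested genes had a median of -0.69, against 0.04 over all genes, and 3 of the 5 had an unadjusted p under 0.05. This call was fragile: 9 of 19 alternative settings kept it, it was lost in 7 of the 8 fits that left out 1 array, and with 6 arrays the value was -1.14 (limma adjusted p = 0.0817).

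**Figure D2:**
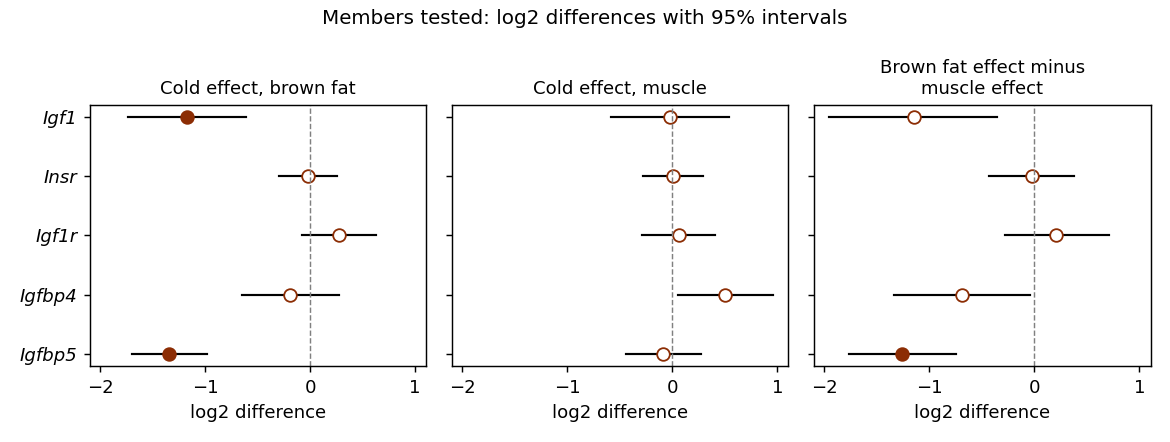
Log2 differences of the 5 tested genes, with 95% intervals: cold minus room temperature in brown fat and in quadriceps, and the brown fat effect minus the quadriceps effect. Filled points passed an adjusted p of 0.05. In brown fat, Igf1 at -1.17 and Igfbp5 at -1.34 lie below 0 with their whole intervals, while in quadriceps no point is filled.

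Across the 8 arrays, with values centred within each tissue, Igf1 and Igfbp5 had a Pearson correlation of 0.946. These 8 points share 4 groups, so the correlation largely restates that both were lower in cold brown fat. By the same measure the genes nearest to Igf1 were Cep78 (0.980), Mocs1 (0.979) and Nck2 (0.978), and those nearest to Igfbp5 were Calhm6 (0.993), Slc26a10 (0.993) and Manbal (0.992). Calhm6 was at 5.44 and 5.62 in cold brown fat, against 7.74 and 7.32 in brown fat at room temperature. Igf1 correlated at -0.573 with Igf1r and at 0.43 with Igfbp4.

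The promoters of Igf1 and Igfbp5 are shown because these are the members that fell together in cold brown fat. Each sequence is the 250 bases before the gene's start in the RefSeq annotation of mouse assembly GRCm38.p6, on the gene's own strand, at chr10:87860861-87861110 on the plus strand for Igf1 and chr1:72874866-72875115 on the minus strand for Igfbp5. No letters are in capitals because none of the searched motifs was found.
Igf1: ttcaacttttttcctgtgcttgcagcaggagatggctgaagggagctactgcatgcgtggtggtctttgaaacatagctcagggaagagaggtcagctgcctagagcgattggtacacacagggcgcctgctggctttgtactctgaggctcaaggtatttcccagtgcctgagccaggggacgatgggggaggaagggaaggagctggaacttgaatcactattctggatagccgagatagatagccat
Igfbp5: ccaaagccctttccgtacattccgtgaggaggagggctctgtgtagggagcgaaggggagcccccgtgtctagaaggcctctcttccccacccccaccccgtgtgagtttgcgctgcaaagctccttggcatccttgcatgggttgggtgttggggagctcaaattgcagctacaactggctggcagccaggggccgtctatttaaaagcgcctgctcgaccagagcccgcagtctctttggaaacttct
Motifs were searched on both strands in the 250 bases before the start. The motifs were the FOXO site GTAAACA (in 3.2% of 32851 promoters of this length), the insulin response letters CAAAACA (5.6%), the cAMP response element TGACGTCA (1.5%), its core TGACG, which lies within the full element (17.8%), the glucocorticoid receptor letters AGAACA (16.1%), and the STAT site TTCNNNGAA (7.0%). Promoter entries were found for 9 of the 10 genes, with 11 entries in all, and Insr had no entry. None of these motifs occurred in the windows of Igf1, Igfbp5, Igfbp4, Igf1r or Igfbp3, which says only that these letters are not in these windows.

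Among the genes that could not be tested, Irs1 held the insulin response letters at 2 places and the TGACG core at 1, Irs2 held the insulin response letters at 1 place, and Grb10 and Pik3r1 each held the TGACG core in 1 of 2 promoter entries. No expression value goes with these matches.

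Igf1r, the receptor for IGF-1, was at 6.46 and 6.28 in cold brown fat, against 6.23 and 5.96 in brown fat at room temperature. Quadriceps arrays read 6.51 and 6.24 in the cold, against 6.24 and 6.39 at room temperature. The brown fat arrays were separated by a narrow margin and the quadriceps arrays overlapped. The brown fat difference was 0.27 (SE 0.15, interval -0.08 to 0.63, limma adjusted p = 0.258) and the quadriceps difference 0.06 (SE 0.15, interval -0.29 to 0.41, adjusted p = 0.872). The intervals allow a change of Igf1r in brown fat up to 0.63 on the log2 scale, so that Igf1r is not shown to be unchanged.

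Insr, the insulin receptor, was close to background throughout and was detected on 4 of the 8 arrays. Its levels were 5.60 and 5.70 in cold brown fat, with neither array above background, against 5.64 and 5.70 in brown fat at room temperature. In quadriceps they were 5.70 and 5.64 in the cold, against 5.52 and 5.81 at room temperature. No fold is given for brown fat because the cold arrays are not well above background. All 5 of its tested differences lay between -0.02 and 0.01, with limma adjusted p from 0.902 to 0.988, but a probe this near to background has little room to show a fall.

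Igfbp4, a binding protein that is cut by the protease Pappa, was measured by 2 probes. The brighter probe, which stands for the gene, was at 9.88 and 10.07 in cold brown fat, against 10.11 and 10.23 in brown fat at room temperature. In quadriceps it was at 10.37 and 10.93 in the cold, against 10.01 and 10.28 at room temperature. The brown fat difference was -0.19 (SE 0.19, interval -0.65 to 0.27, limma adjusted p = 0.557). The quadriceps difference was 0.50 (SE 0.19, interval 0.05 to 0.96), with an unadjusted limma p of 0.0355 that was not called after adjustment (adjusted p = 0.208).

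The dimmer Igfbp4 probe gave a larger difference in quadriceps. It was at 9.82 and 10.32 in the cold, against 8.88 and 8.95 at room temperature, so that both cold arrays stood clear of both arrays at room temperature. In a fit of every probe this was a difference of 1.15 (SE 0.17, interval 0.76 to 1.55, limma adjusted p = 0.019), against 0.50 (adjusted p = 0.216) for the brighter probe in the same fit. In brown fat the dimmer probe was at 9.48 and 9.46 in the cold, against 9.47 and 9.65 at room temperature, a difference of -0.09 (SE 0.17, adjusted p = 0.778). Both probes thus had higher means in cold quadriceps, but they disagreed on the size and on the call. The cold quadriceps array with the higher Igfbp4 was also the one with the higher adipocyte marker sum (19408, against 4852 on the other cold array). Without it the brighter probe's difference was 0.23 (limma adjusted p = 0.611), and without the other cold array it was 0.78 (adjusted p = 0.0412). By each probe, both cold quadriceps arrays read above every brown fat array. The part of adipocyte RNA in the Igfbp4 difference in quadriceps was not tested.

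In quadriceps no tested member was called after the 4 h of cold, against 4.21% of all genes, and 1 of the 5, Igfbp4, had an unadjusted limma p under 0.05. The median difference of the 5 genes was 0.01, against -0.02 over all genes.

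The tissue comparisons include the muscle transcripts on the brown fat arrays. At room temperature the sums over 8 muscle markers were 51721 and 63576 in brown fat, against 205634 and 203126 in quadriceps. In the cold they were 495 and 64552 in brown fat, against 197422 and 196478 in quadriceps. The part of muscle RNA in the tissue differences was not tested. Between the tissues, the most different member was Igfbp5. At room temperature it was lower in brown fat than in quadriceps, at 12.19 and 11.77 against 13.69 and 13.68, a difference of -1.71 (SE 0.15, 3.26-fold, limma adjusted p = 7.35e-05). In the cold the brown fat arrays stood at 10.62 and 10.66 against 13.51 and 13.70 in quadriceps, a difference of -2.96 (SE 0.15, 7.80-fold, limma adjusted p = 1.05e-05). The order of the group means of Igfbp5 was cold brown fat lowest, then brown fat at room temperature, then the 2 quadriceps groups, which did not differ beyond their spread.

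Igf1 was 1.76-fold higher in brown fat than in quadriceps at room temperature, with a difference of 0.82 (SE 0.24, limma adjusted p = 0.0187). In the cold its means were 6.94 in brown fat and 7.27 in quadriceps, a difference of -0.33 (SE 0.24, limma adjusted p = 0.258). Brown fat at room temperature was thus the highest of the 4 groups for Igf1, and the other 3 groups did not differ beyond their spread. The room temperature call was lost without brown fat array 1 (0.60, adjusted p = 0.114) or quadriceps array 1 (0.61, adjusted p = 0.116) of that temperature, and with arrays scaled to equal medians (0.58, adjusted p = 0.276). Igfbp4 was not called at room temperature (difference 0.02, SE 0.19, limma adjusted p = 0.927) by its brighter probe, whereas the dimmer probe was higher in brown fat by 0.65 (SE 0.17, adjusted p = 0.0114). In the cold Igfbp4 was lower in brown fat by the brighter probe (-0.67, SE 0.19, limma adjusted p = 0.0187), a call lost with 6 arrays (-0.30, adjusted p = 0.205), without cold brown fat array 1 (-0.58, adjusted p = 0.0863) and without cold quadriceps array 2 (-0.40, adjusted p = 0.0789). Igf1r and Insr were not called between the tissues at either temperature. In all, 1 of 5 tested members was higher and 1 lower in brown fat at room temperature, where 66.2% of all genes were called, and 2 of 5 were lower in the cold, where 64% were called.

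The remaining measured members had no usable level. Irs1 and Grb10, a docking protein and an adaptor that binds both receptors, and Pik3r1, the regulatory subunit that couples docking proteins to PI3-kinase, had raw signals of 58.5 to 95.7 and were detected on 0 of 8 arrays. Their log2 intensities lay between 5.11 and 5.38 as group means, and no comparison is made for them.

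The wider pathway was described through 87 further genes grouped by role, 73 of which had a probe and 57 of which were tested. In cold brown fat 4 rose and 11 fell (26.3% called, against 16.6% of all genes), with a median difference of -0.01. In cold quadriceps 2 rose and 6 fell (14% called, against 4.21% of all genes), with a median difference of 0.05. The list was compiled with earlier results of these data known, and no test compares it with other genes. With 6 arrays, 11 of the 15 brown fat calls and 4 of the 8 quadriceps calls were made again, and all 15 and all 8 kept their direction.

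Among other ligands and receptors, Igf2 and Igf2r were tested and neither was called in the cold in either tissue. Among 7 tested IGF-binding and IGF-releasing proteins, Igfals fell in brown fat. Igfals encodes the acid-labile subunit that holds IGF-1 and a binding protein in a ternary complex in blood. It was at 7.29 and 7.50 in cold brown fat, against 9.83 and 9.06 in brown fat at room temperature, a difference of -2.05 (SE 0.26, limma adjusted p = 0.00435) that was called under all 20 alternative settings. In quadriceps its difference was -1.01 and was not called (SE 0.26, limma adjusted p = 0.0851 in the fit of every probe). Igfals was also not called for the difference between cold effects, so its fall is not shown to differ between the tissues.

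Of 10 tested adaptors and receptor phosphatases, 3 fell in cold brown fat and none rose. Irs3, a rodent docking protein of the insulin receptor substrate family, was at 7.0 and 7.93 in cold brown fat, against 9.62 and 9.98 in brown fat at room temperature, a difference of -2.33 (SE 0.30, limma adjusted p = 0.00455). In quadriceps Irs3 lay between 5.37 and 5.77 and was above background on 1 of the 4 arrays, so a fall there could not have been seen, and the called difference between its cold effects (-2.39, SE 0.42, adjusted p = 0.0343) says nothing of the tissues responding differently. The docking protein Gab1 fell by 1.13 on the log2 scale (SE 0.16, limma adjusted p = 0.0061). Grb2, which links receptors to RAS, fell by 0.47 (SE 0.12, limma adjusted p = 0.0356) but was called under 11 of 20 alternative settings. In quadriceps none of the 10 was called.

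Of 10 tested genes of PI3-kinase, AKT and their brakes, 1 rose and 5 fell in cold brown fat. The PI3-kinase regulatory subunits Pik3r2 and Pik3r3 fell in both tissues. Pik3r2 was at 6.07 and 6.25 in cold brown fat, against 7.32 and 7.22 in brown fat at room temperature (difference -1.11, SE 0.11, limma adjusted p = 0.00248), and at 6.62 and 6.54 in cold quadriceps, against 7.56 and 7.40 in quadriceps at room temperature (-0.90, SE 0.11, adjusted p = 0.0129). Pik3r3 was at 6.98 and 7.02 in cold brown fat, against 7.98 and 7.90 in brown fat at room temperature (-0.94, SE 0.10, limma adjusted p = 0.0029), and fell by 0.66 in quadriceps (SE 0.10, adjusted p = 0.0232, against 0.0733 with 6 arrays). The kinase Akt2, known for its role in insulin-stimulated glucose uptake, was at 11.74 and 11.81 in cold brown fat, against 12.57 and 12.49 in brown fat at room temperature (-0.75, SE 0.10, limma adjusted p = 0.00435), and its cold effect was lower in brown fat than in quadriceps (-0.86, SE 0.13, adjusted p = 0.0273). A second Akt2 probe gave -1.61 in brown fat.

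The PI3-kinase inhibitor Pik3ip1 fell in brown fat by 0.69 (SE 0.14, limma adjusted p = 0.0209). The AKT phosphatase Phlpp1 fell there by 0.50 (SE 0.13, limma adjusted p = 0.039), a call lost with 6 arrays. Pdpk1, the kinase that phosphorylates AKT, rose by 0.51 (SE 0.12, limma adjusted p = 0.0268), also lost with 6 arrays. In quadriceps the third gene that fell was Trib2, a pseudokinase of the Tribbles family, by 1.22 (SE 0.18, limma adjusted p = 0.0181). Trib2 was at 8.16 and 8.09 in cold quadriceps, against 9.06 and 9.62 at room temperature, and with 6 arrays the value was -1.19 (adjusted p = 0.0565).

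Among 10 tested genes of the mTOR branch, Mtor, the kinase of this branch, rose in brown fat by 0.59 (SE 0.13, limma adjusted p = 0.0266), and Rictor, a subunit of mTOR complex 2, rose in quadriceps by 0.54 (SE 0.11, adjusted p = 0.0488), called under 7 of 20 alternative settings. Of 4 tested genes of the RAS and MAP kinase branch none was called in the cold in either tissue.

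Among 6 tested effectors, Foxo1 rose in both tissues. Foxo1 is the transcription factor that AKT restrains. It was at 10.41 and 10.26 in cold quadriceps, against 8.0 and 7.81 in quadriceps at room temperature, a difference of 2.43 (5.39-fold, SE 0.12, limma adjusted p = 0.00121) that was called under all 20 alternative settings. In brown fat it was at 10.26 and 10.29 in the cold, against 9.69 and 9.86 at room temperature (difference 0.50, SE 0.12, limma adjusted p = 0.0332), and 9 of 20 alternative settings called it. The rise in brown fat was smaller than in quadriceps (difference of the effects -1.93, SE 0.17, limma adjusted p = 0.00878). The insulin-regulated glucose transporter Slc2a4 was at 11.92 and 11.83 in cold quadriceps, against 12.02 and 11.78 at room temperature, and was not called.

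The growth hormone to STAT5 axis, which controls Igf1 transcription in liver, had 8 tested genes. In brown fat 1 rose and 2 fell, and in quadriceps none rose and 3 fell. Stat5a, the transcription factor, was at 7.57 and 7.63 in cold brown fat, against 9.83 and 10.03 in brown fat at room temperature, a difference of -2.33 (5.03-fold, SE 0.16, limma adjusted p = 0.00108) that was called under all 20 alternative settings. Its quadriceps levels were 6.89 and 7.34 in the cold, against 7.58 and 7.44 at room temperature, and the effects differed between the tissues (-1.94, SE 0.23, adjusted p = 0.0152).

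Cish, a STAT5 target and inhibitor, fell in both tissues. It was at 8.18 and 7.75 in cold quadriceps, against 11.31 and 12.39 at room temperature (-3.88, SE 0.54, limma adjusted p = 0.0169), and at 9.97 and 9.08 in cold brown fat, against 12.23 and 10.88 at room temperature (-2.03, SE 0.54, adjusted p = 0.0444, called under 10 of 20 alternative settings). Socs2, another inhibitor of growth hormone signalling, rose in brown fat and fell in quadriceps. It was at 10.96 and 11.19 in cold brown fat, against 9.38 and 8.67 in brown fat at room temperature (2.05, SE 0.35, limma adjusted p = 0.0106). In quadriceps it was at 8.41 and 8.62 in the cold, against 9.99 and 10.98 at room temperature (-1.97, SE 0.35, adjusted p = 0.0317, not called with 6 arrays), and the difference between the effects was 4.02 (SE 0.49, adjusted p = 0.0158). Socs3 fell in quadriceps by 2.82 (SE 0.37, limma adjusted p = 0.0142), with 1 of the 2 cold arrays above background.

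The calls of the wider pathway differed in how far they rested on single arrays. In brown fat, Igfals, Irs3, Stat5a, Gab1, Akt2, Pik3r2 and Pik3r3 were called whichever 1 array was left out. Socs2 there was lost without room temperature array 2 (1.69, limma adjusted p = 0.0635), and Pik3ip1 without either room temperature array or cold array 1 (-0.72 to -0.51, adjusted p up to 0.105). Cish, Foxo1, Grb2, Mtor, Pdpk1 and Phlpp1 in brown fat were each lost in 5 or 6 of the 8 fits that left out 1 array. The fall of Cish was then smallest, at -1.36, without room temperature array 1. In quadriceps, Foxo1 and Socs3 were called whichever array was left out. Cish and Trib2 were lost without room temperature array 2 or cold array 2, Pik3r2 without either room temperature array, and Pik3r3 and Socs2 in 3 fits each. Rictor was lost in 6.

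**Figure D3:**
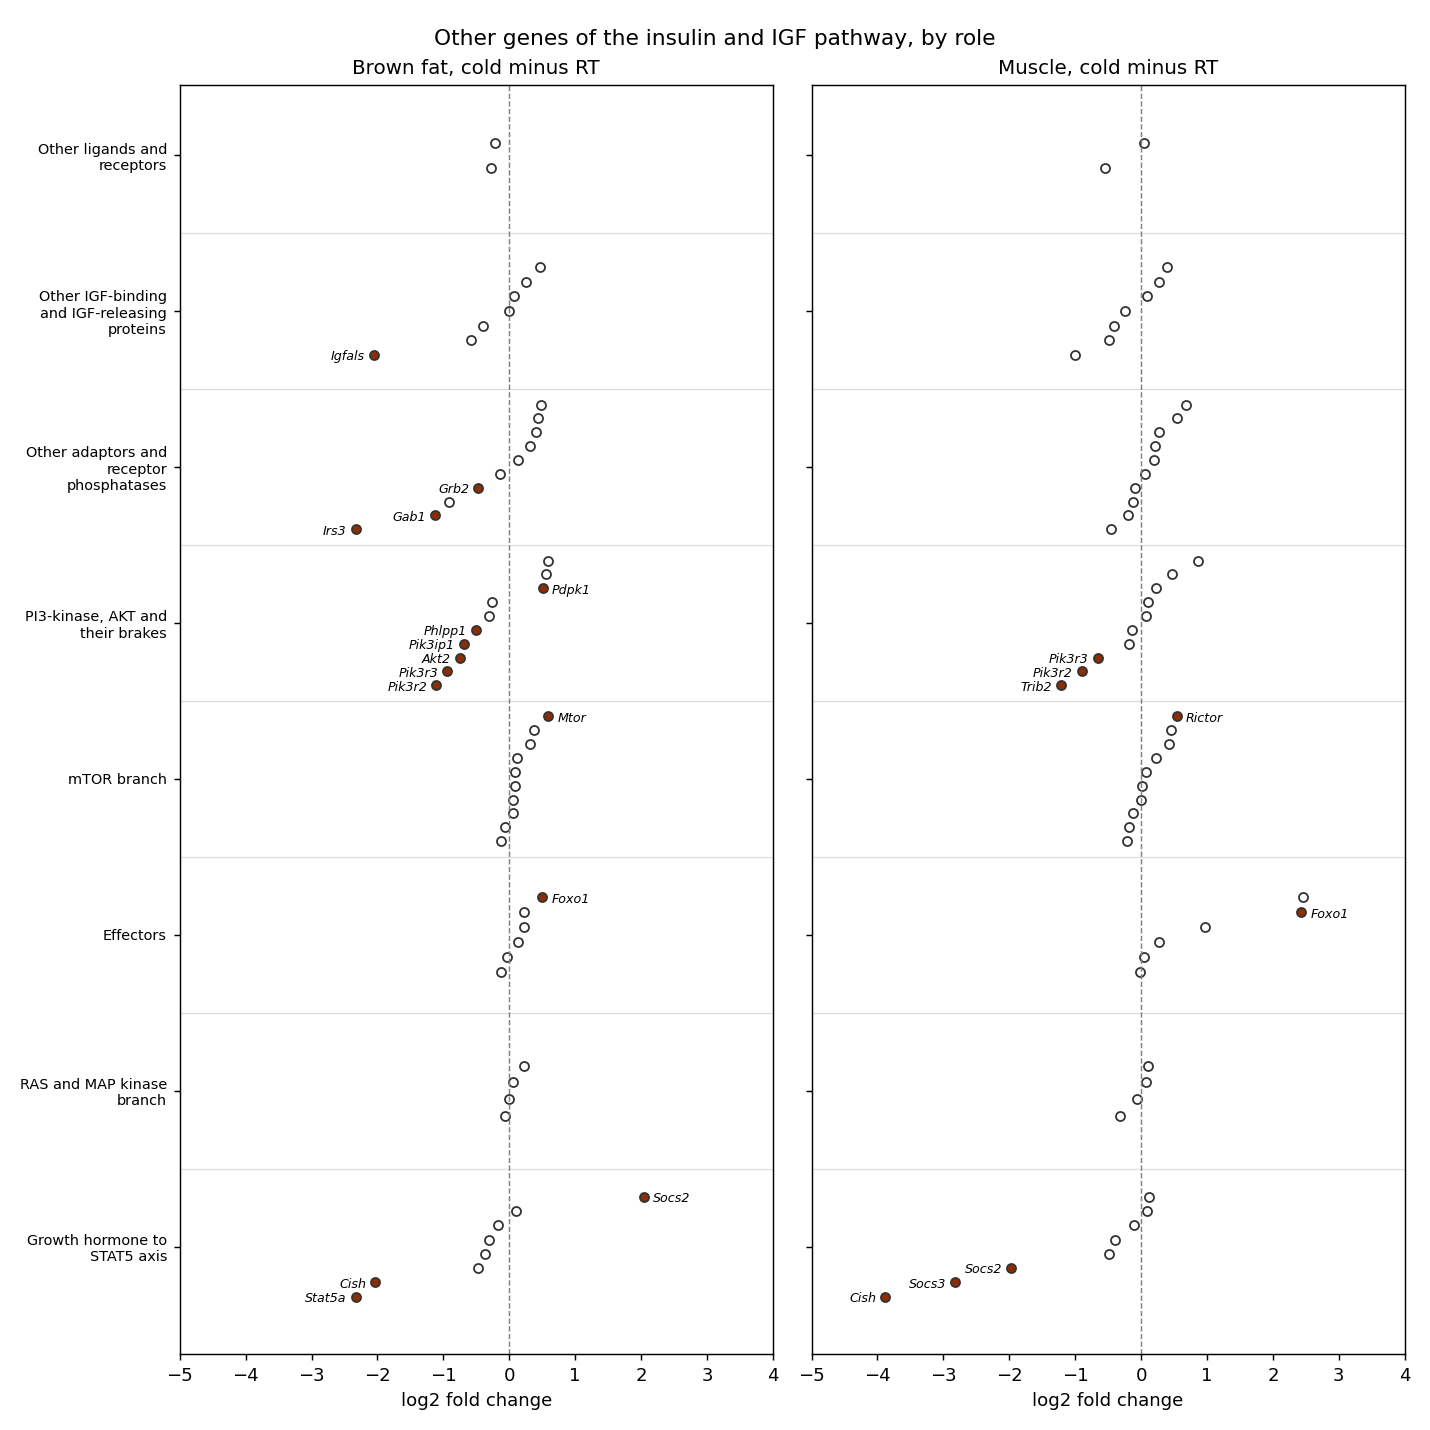
Log2 fold change, cold minus room temperature, of 57 tested genes of the wider insulin and IGF pathway in brown fat and in quadriceps, by role. Filled and named points passed an adjusted p of 0.05. The 11 genes that fell in brown fat include Stat5a and Irs3 at -2.33 and Igfals at -2.05, and Foxo1 at 2.43 is the larger of the 2 named rises in quadriceps.

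Markers of other cell types that brown fat could hold were read beside the falls of Igf1 and Igfbp5, since macrophages and fibroblasts are known sources of these transcripts. Over 4 tested macrophage markers the summed linear intensity was 884 and 895 in cold brown fat, against 1251 and 1320 in brown fat at room temperature, and 2 of the 4 fell (Cd14 by 0.71 and Fcer1g by 0.68). Over 7 fibroblast markers the sums were 9015 and 8479, against 8119 and 8156, and none was called. Over 7 endothelial markers the sums were 9524 and 7629, against 9917 and 9447, and 2 of the 7 fell. The part of macrophage, fibroblast or endothelial RNA in the falls of Igf1 and Igfbp5 was not tested.

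**Figure D4:**
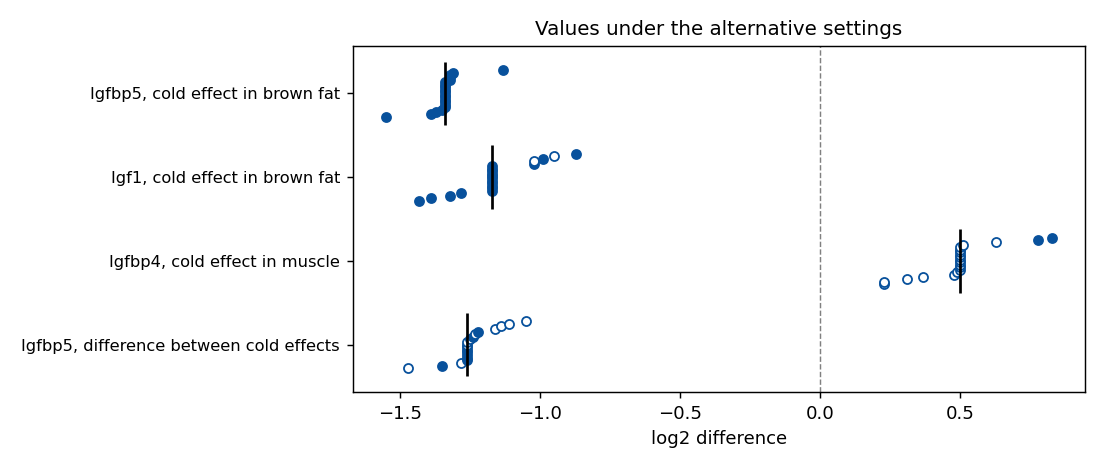
Log2 differences of 4 results of Igf1, Igfbp4 and Igfbp5 under the alternative settings (20 for each cold effect, 19 for the difference between cold effects). The vertical line is the value reported, filled points passed an adjusted p of 0.05. All points of the Igfbp5 fall in brown fat are filled, 18 of 20 for Igf1, 2 of 20 for Igfbp4 in quadriceps and 9 of 19 for the difference between the cold effects on Igfbp5.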

How the data were processed

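Total RNA of 8 samples was amplified, labelled with biotin and hybridised to Illumina bead arrays, per the labels' protocols. The first deposited table holds an intensity per probe on a linear scale, judged from its values to have no background subtraction or scaling, with a deposited detection score that was read as 1 minus a p-value because it rises with the signal. The second deposited table holds the authors' processed intensity values, 32.8% of them below 0, and was used as an alternative with values under 16 set to 16. The summarising software, background method and normalization behind these values were not stated (not given in the sources used here).

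In R 4.3.3 with limma 3.58.1, signals were corrected with the normexp model (negative controls inferred from the detection p-values, offset 16), quantile normalized and then log2 transformed. Of 24607 probes, 11946 had a detection p under 0.05 on both arrays of 1 or more groups and were tested, and the brightest probe stood for a gene. Names came from the platform annotation, in which 20980 probes carry 1 symbol, 20964 of them matched to RefSeq genes by gene ID. A tested probe that does not carry 1 symbol stood for itself and is counted among the 9963 genes. A model with 4 group means was fitted with lmFit and eBayes (4 residual and 3.07 prior degrees of freedom), and p-values were adjusted by Benjamini-Hochberg over 9963 genes. The number of arrays, 2 per group, limits the precision. The fit was tested on simulated data.

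Groups and replicate numbers come from the sample titles. All probes of the 10 members are reported, together with up to 4 genes per role of the wider list with the largest change among those past the threshold in each cold effect, and the 3 genes closest to each member that changed. Pdpk1, Phlpp1, Igf2, Igf2r and Slc2a4 were named after their values were seen. The members and lists were chosen with earlier results of these data known. Same-numbered arrays of cold and room temperature correlated in their deviations from the group means at 0.181 in brown fat and 0.067 in quadriceps. Same-numbered arrays of brown fat and quadriceps correlated at -0.125 in the cold and -0.033 at room temperature. No label ties the numbers to shared mice or days, so they were not used as pairs in the model. Whether the tissue differences are within mice is thus not known. The alternatives were other background corrections and scalings, the authors' table, other detection filters, the mean of a gene's probes, a trended prior, the compared arrays alone, each array left out, 6 arrays, and the replicate block. Promoter sequences are from RefSeq (GRCm38.p6). Positions of probes are not given, as the sources used here do not name the array's build.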

Additional observations from a re-analysis of the deposited data

Results flagged for a closer look

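Among the 5 tested members and the 18 wider pathway genes called in a cold effect, 7 passed limma's test of the difference between the cold effects in brown fat and quadriceps. The 18 were taken because they had passed a cold effect, so this count is no measure of the pathway: of all 57 tested wider pathway genes 10.5% passed, against 4.22% of all genes. The values are the brown fat effect minus the quadriceps effect on the log2 scale. Igfbp5 had -1.26, with a fall in brown fat. Stat5a had -1.94 and Akt2 -0.86, each with a fall in brown fat. Irs3 had -2.39, but it was above background on 1 of 4 quadriceps arrays, where a fall could not have been seen, so this value does not show that the tissues differ. Foxo1 had -1.93, from a larger rise in quadriceps than in brown fat. Socs2 had 4.02, from a rise in brown fat and a fall in quadriceps, and Trib2 had 1.81, with a fall in quadriceps and a brown fat difference of 0.59 that was not called (limma adjusted p = 0.0658 in the fit of every probe). Both quadriceps arrays of cold mice carried brown fat transcripts, array 2 more than array 1, and the part of this in these differences was not tested.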

How the results depend on the processing

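The fall of Igfbp5 in cold brown fat and its tissue differences at both temperatures were called under all 20 alternatives, and the fall of Igf1 under 18 of 20. Scaling arrays to equal medians shifted the median of all genes to -0.107 in brown fat, -0.198 in quadriceps, -0.239 between tissues at room temperature and -0.121 between tissues in the cold, and lowered the genes called in brown fat to 252, against 1656. It left 0 members called for the difference between cold effects, 1 between tissues at room temperature and 1 between tissues in the cold. Of the wider pathway it called 5 genes in each tissue. In quadriceps it lost the calls of Pik3r2, Pik3r3, Rictor and Trib2. Under it Insr (-0.03) and Igf1r (-0.14) in quadriceps and Insr (-0.02) and Igfbp4 (-0.35) between tissues at room temperature changed sign. Averaging a gene's probes called 1 member in quadriceps, Igfbp4 (0.83, adjusted p = 0.0499). Fitting only the arrays compared called 1 member between tissues in the cold and 3 wider pathway genes in quadriceps. With 6 arrays, 0 members were called for the difference and 1 between tissues in the cold, and the sign changed for Insr in brown fat (0.03), Igf1r in the difference (-0.01), and Igf1 (0.06) and Insr (0.00) between tissues in the cold. In the authors' table Igf1r between tissues in the cold was 0.00. The replicate block by title left 0 members for the difference (Igfbp5 -1.26, adjusted p = 0.0569), and the block by the description's numbers left 1. The blocks changed no other member's call, and called 13 wider pathway genes in brown fat. The cause of these changes was not tested.

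Leaving out each array in turn gave 1 to 2 members in cold brown fat, 0 to 1 in quadriceps, 0 to 2 for the difference, 1 to 2 between tissues at either temperature, and 8 to 16 wider pathway genes in brown fat and 2 to 9 in quadriceps. In these fits values crossed 0 for Insr in brown fat (-0.07 to 0.03), in quadriceps (-0.14 to 0.15), in the difference (-0.16 to 0.12), between tissues at room temperature (-0.14 to 0.15) and in the cold (-0.07 to 0.03). They also did for Igf1 (-0.26 to 0.22), Igf1r (-0.08 to 0.20) and Igfbp5 (-0.18 to 0.01) in quadriceps, Igf1r between tissues in the cold (-0.14 to 0.13), and Igfbp4 between tissues at room temperature (-0.11 to 0.15). Genes called ranged over all alternatives at 252 to 1768 in brown fat, 46 to 696 in quadriceps, 16 to 817 for the difference between cold effects, 3446 to 6832 between tissues at room temperature and 2981 to 6434 in the cold. A scan or chip block was not run, as the headers name none. Signal near background limits Insr, and Irs1, Grb10 and Pik3r1 have no usable level.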
